A study of Mus musculus with 11 samples.

Results

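The genes described here were 10 apolipoproteins of high density lipoprotein (HDL), very low density lipoprotein (VLDL) and chylomicron remnants, measured in liver RNA of the AMLN ob/ob-MASH mouse. They were chosen by gene name from a count table of 46603 genes, and all 10 had enough counts to be among the 13880 genes tested. The genes were Apoa1, Apoa2, Apoa4, Apoa5, Apob, Apoc1, Apoc2, Apoc3, Apoe and Apom. All the mice were male ob/ob mice, which lack functional leptin. They were fed the AMLN diet, which is high in fat, fructose and cholesterol, from an age of 5 to 6 weeks, and after 15 weeks they were kept on it and given either vehicle (7 mice) or INT-767 at 10 mg/kg once daily (4 mice) for 8 weeks. INT-767 is an agonist of the nuclear receptor FXR (gene Nr1h4) and of the membrane bile acid receptor TGR5 (gene Gpbar1). Both groups carried the same mutation and stayed on the same diet, so no lean or chow-fed liver is in the comparison, and only mice whose biopsy showed both steatosis and fibrosis were assigned to a group. Each library came from polyadenylated RNA of 1 mouse. Total counts per mouse ran from 7966963 to 15295230 with vehicle, with a median of 10878327, and from 7381211 to 16022459 with INT-767.

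Apolipoproteins are the protein coat of lipoprotein particles, and the hepatocyte makes most of those in plasma. Apob is the structural protein on which a VLDL particle is built, Apoa1 and Apoa2 are the main proteins of HDL, and Apoe is the ligand through which remnants are taken up by the liver. The small proteins of the C group and Apoa5 set how fast lipoprotein lipase removes triglyceride from the particle: Apoc2 is the cofactor of the enzyme, Apoc3 slows it and Apoa5 favours it. FXR is known to act on several of these genes, among them Apoc2, Apoc3, Apoa1 and Apoa5.

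Apoa5 rose with INT-767, and was the only 1 of the 10 genes past an adjusted p of 0.05 in edgeR's quasi-likelihood test over all genes, where 9.72% of all genes tested were called 5.04% were called higher and 4.68% lower. In all 700 genes were higher and 649 lower, and 331 and 1026 when libraries were scaled by library size alone. The other 9 genes had fitted differences from 0.06 (Apoe) to 0.87 (Apob) on the log2 scale. All 10 values were above 0, as were 49.3% of those of all genes tested, although Apoa2, Apoe and Apom fell below 0 when libraries were scaled by library size alone, and Apoa2 and Apoe did so with upper-quartile scaling. Library size alone also moved the median of all genes from -0.01 to -0.22, and relative to that median these genes stayed above. The median of the 10 genes was 0.45. At an unadjusted p under 0.05, 4 of the 10 genes were higher and none was lower, beside 17.4% of all genes higher and 15.6% lower. The 4 became 1 without INT-767-treated mouse 2, 2 without mouse 4, 7 without mouse 1, and 1 by library size alone. In those fits 1433 of 14349, 1532 of 13955, 2914 of 13985 and 1038 of 13880 genes tested were higher at that p. With all mice it was 2414 of 13880.

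**Figure D1:**
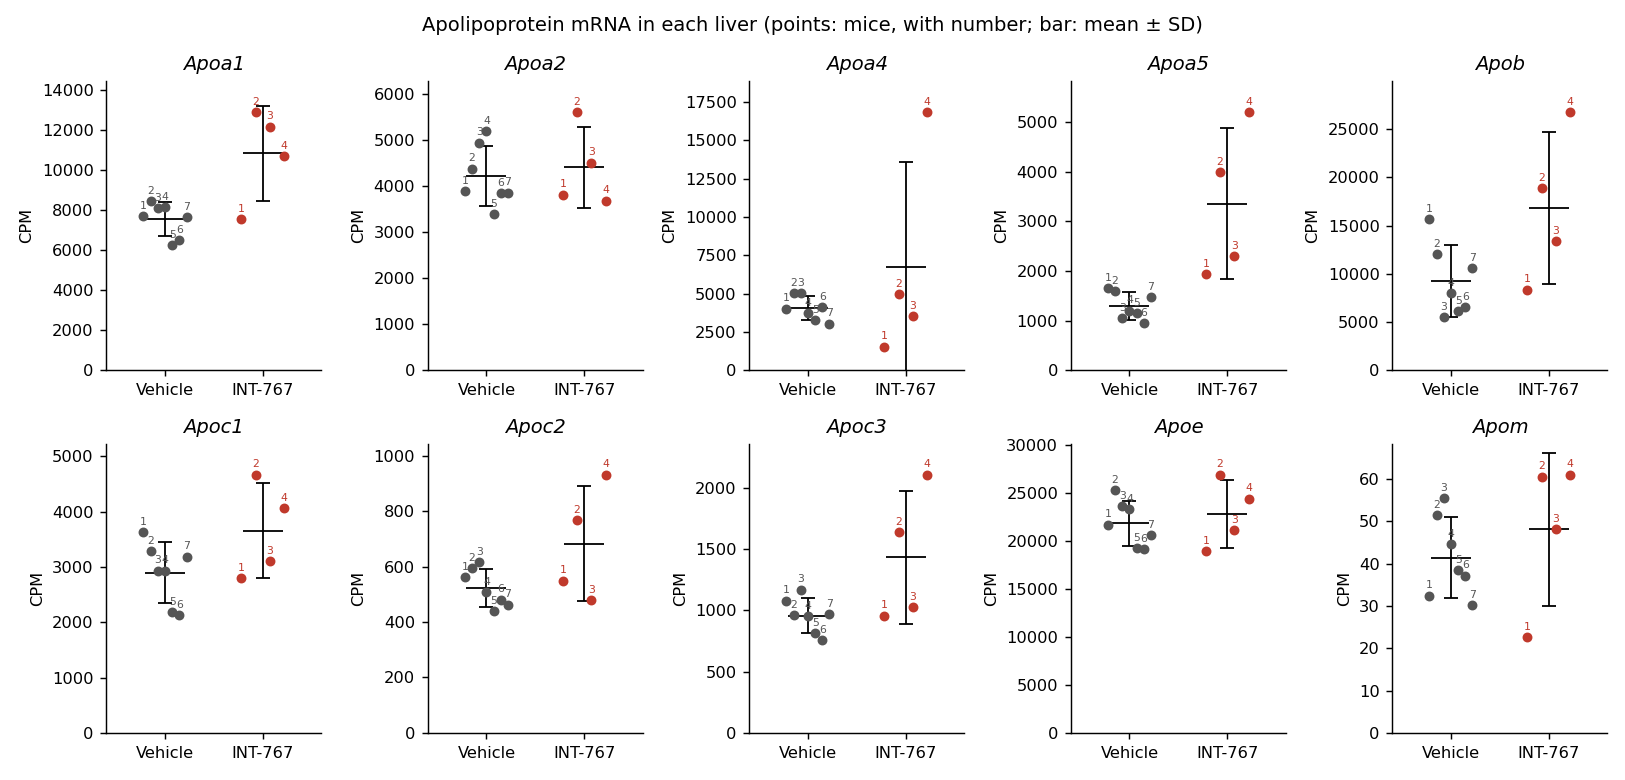
CPM (read counts scaled to a common library size) of each apolipoprotein mRNA in each mouse, on a linear axis that starts at 0. Points are mice with their replicate number, 7 for vehicle (grey) and 4 for INT-767 (red), and bars are the mean ± SD, of which the lower end for Apoa4 with INT-767 lies below the axis. For Apoa5 all 4 INT-767-treated mice were above the highest vehicle mouse (1659 CPM), and for Apoa4 a single mouse, at 16847 CPM, stood far above the rest.

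The order of the genes by abundance was compared as RPKM, that is CPM divided by exon length in kilobases, since Apob mRNA, at 13934 exon bases, is far longer than the others. In vehicle livers Apoe had the highest level (10232 ± 1093 RPKM, SD, n = 7), followed by Apoa2 (7828 ± 1214), Apoa1 (6096 ± 683), Apoc1 (3894 ± 750) and Apoa4 (2221 ± 434). Apoc3 (943 ± 139 RPKM), Apob (661 ± 268), Apoc2 (644 ± 83.6) and Apoa5 (514 ± 111) formed a lower group, and Apom, a carrier of sphingosine-1-phosphate on HDL, was lowest at 40.9 ± 9.41. Neighbours in this order had separate vehicle ranges for Apoa1 above Apoc1, Apoc1 above Apoa4, Apoa4 above Apoc3 and Apoa5 above Apom, and overlapping ranges for all other neighbours.

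With INT-767 the mean of Apoa5 was 1330 ± 605 RPKM (SD, n = 4), which moved it from rank 9 to rank 7 of the 10. Apoc2 stood above Apoa5 in 6 of 7 vehicle mice and in 0 of 4 INT-767-treated mice. Apoa1 stood below Apoa2 in every vehicle mouse and above it in 2 of 4 INT-767-treated mice. The 10 genes together held 5.50% ± 0.456 of all counts with vehicle (SD, n = 7), and 4.56%, 6.78%, 5.94% and 8.17% in INT-767-treated mice 1 to 4. The share in mouse 1 was below that of every vehicle mouse, and those in mice 2 and 4 were above that of every vehicle mouse.

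Among the genes of lipolysis, Apoa5 lies on chromosome 9 from 46268633 to 46271919 (GRCm38), on the plus strand, with 4 exons. In counts per mouse scaled to a common library size (CPM), it was between 942 and 1659 CPM in vehicle mice, with a median of 1202. In INT-767-treated mice 1 to 4 it was 1929, 3990, 2296 and 5204 CPM. The groups did not overlap, which was so, with INT-767 higher, for 3.87% of all genes tested, and treated mice 2 and 4 stood well above mice 1 and 3. The fold was 2.59, with a log2 fold change of 1.37 ± 0.26 (SE, n = 4 and 7; 95% interval 0.80 to 1.95; edgeR adjusted p = 0.0104). It was past the threshold when any 1 mouse was left out, with values from 1.07 to 1.57.

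The sequence just before the start of Apoa5 is shown because it is the gene that changed, beside that of Apoa1, the gene at the other end of the same cluster and on the same strand. Both are RefSeq promoter entries on GRCm38.p6, plus strand. The Apoa5 stretch is the 250 bases before the first of 2 RefSeq starts, chr9:46268358-46268607. The Apoa1 stretch, chr9:46228380-46228579, is shorter, at 200 bases, since it ends where the first annotated exon of the gene begins. All 250 bases before the Apoa1 RefSeq start were nevertheless searched for the letters given next. Capitals mark the receptor core GGTCA on either strand (TGACC when read on the plus strand) and TATAAA.
Apoa5: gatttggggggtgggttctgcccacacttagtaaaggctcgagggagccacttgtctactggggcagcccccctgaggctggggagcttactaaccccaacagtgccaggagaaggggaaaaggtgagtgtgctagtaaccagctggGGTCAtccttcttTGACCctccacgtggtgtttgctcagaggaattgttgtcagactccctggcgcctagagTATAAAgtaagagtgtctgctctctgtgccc
Apoa1: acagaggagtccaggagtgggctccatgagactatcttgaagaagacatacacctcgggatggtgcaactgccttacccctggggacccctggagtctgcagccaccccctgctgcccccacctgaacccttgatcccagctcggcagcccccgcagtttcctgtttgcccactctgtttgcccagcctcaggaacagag
In Apoa5, counted back from the first RefSeq start, GGTCA stands at -103 to -99 on the plus strand and at -90 to -86 on the minus strand, where it overlaps a CAAAG at -93 to -89 on the minus strand, and TATAAA stands at -31 to -26. From the second start, whose window is chr9:46268383-46268632, GGTCA stands at -128 to -124 and -115 to -111, CAAAG at -118 to -114 and TATAAA at -56 to -51. Of 32851 RefSeq windows of 250 bases, searched on both strands, 35.2% hold GGTCA, 48.6% hold CAAAG and 12.4% hold TATAAA. One inverted repeat known for FXR is AGGTCANTGACCT, where N is any base. It and its core GGTCANTGACC were in 0.00609% and 0.0335% of the windows, and in none of the windows of these 10 genes that were searched. Inverted repeats with a wider gap were not searched. The GGTCA pair of Apoa5, on opposite strands, forms such a repeat (GGTCAtccttcttTGACC), and how often it occurs in the other windows was not counted. The other letters searched were AGGTCA (4607 of the windows), AGGTCANAGGTCA (0.0335%), CAAAGTCCA (0.384%) and CCAAT (33.8%). Entries were found for 8 of the 10 genes, Apoc1 and Apoc3 being the exceptions. AGGTCA was in the Apoa2 and Apoc2 windows, and none of the letters searched was in the Apoa1 window. These matches describe letters only.

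Apoc3, the brake on lipoprotein lipase, was between 756 and 1167 CPM in vehicle mice, with a median of 960, and was 956, 1639, 1027 and 2104 CPM in INT-767-treated mice 1 to 4. Mice 2 and 4 were above every vehicle mouse, and mice 1 and 3 were within the vehicle range. The log2 fold change was 0.58 ± 0.22 (SE; 95% interval 0.11 to 1.06; edgeR adjusted p = 0.0967), which did not pass the threshold.

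Apoc2, the cofactor, was between 440 and 615 CPM with vehicle, with a median of 509, and was 549, 769, 478 and 931 CPM in INT-767-treated mice 1 to 4. Its log2 fold change was 0.38 ± 0.19 (SE; 95% interval -0.03 to 0.79; edgeR adjusted p = 0.176). In the GENCODE annotation 79.5% of the exon bases of Apoc2 also belong to Gm44805, a gene model on the same strand that also spans Apoc4 and has no row in the count table, so how reads in the shared exons were counted is not known. Apoc1, a small exchangeable protein known to hinder lipolysis and particle uptake, was between 2129 and 3625 CPM with vehicle and 2802, 4667, 3103 and 4058 CPM with INT-767, at a log2 fold change of 0.34 ± 0.20 (SE; edgeR adjusted p = 0.246). For both genes mice 2 and 4 were again above every vehicle mouse and the groups overlapped.

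Apob, on chromosome 12 from 7977648 to 8016835 with 29 exons, was the most variable gene among vehicle mice, with a coefficient of variation of 40.5%. Its vehicle values ran from 5521 to 15693 CPM, with a median of 7970. In INT-767-treated mice 1 to 4 it was 8366, 18915, 13419 and 26784 CPM, so that mice 2 and 4 were above every vehicle mouse. The log2 fold change was 0.87 ± 0.34 (SE; 95% interval 0.13 to 1.62; edgeR adjusted p = 0.106), a fold of 1.83 that did not pass the threshold. The first principal component of all genes, with 62.6% of the variance, was lowest in INT-767-treated mice 4 (-79.04) and 2 (-60.4) and in vehicle mouse 1 (-37.55), and these 3 mice had the highest Apob. Within each group Apoa5 was also highest in these mice, at 5204 and 3990 CPM in treated mice 4 and 2 and 1659 CPM in vehicle mouse 1. Whether what separated these libraries had a part in the Apob or the Apoa5 difference was not tested.

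Among the HDL proteins, Apoa1 lies on chromosome 9 from 46228580 to 46230466. It was between 6244 and 8426 CPM in vehicle mice, with a median of 7678, and was 7537, 12881, 12157 and 10686 CPM in INT-767-treated mice 1 to 4. Mice 2, 3 and 4 were above every vehicle mouse, and mouse 1 was within their range. Its log2 fold change was 0.52 ± 0.18 (SE; 95% interval 0.14 to 0.90; edgeR adjusted p = 0.0746). Apoa1 was thus second to Apoa5 by p and did not pass the threshold in edgeR's test. It did pass by DESeq2 (0.527, DESeq2 adjusted p = 0.0146) and by limma-voom with sample weights (0.58, limma adjusted p = 0.0351).

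Apoa2 was between 3384 and 5177 CPM with vehicle, and was 3809, 5599, 4502 and 3680 CPM with INT-767, at a log2 fold change of 0.06 ± 0.18 (SE; 95% interval -0.32 to 0.45; edgeR adjusted p = 0.808). Apom was between 30.2 and 55.5 CPM with vehicle, and was 22.6, 60.5, 48.2 and 61.0 CPM with INT-767, at 0.21 ± 0.26 (95% interval -0.34 to 0.77; edgeR adjusted p = 0.561). For both genes the treated mice lay on either side of the vehicle median.

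Apoe, the most abundant of the 10, had the narrowest spread among vehicle mice, with a coefficient of variation of 10.7%. It was between 19137 and 25330 CPM with vehicle, and was 18950, 26940, 21155 and 24452 CPM with INT-767. The log2 fold change of 0.06 ± 0.17 (SE; 95% interval -0.29 to 0.42; edgeR adjusted p = 0.794) was smaller than its error, and the interval does not reach the size seen for Apoa5. Apoe took from 36.2% to 44.9% of the counts of the 10 genes in vehicle mice, and 40.8%, 33.5%, 34.3% and 25.8% in INT-767-treated mice 1 to 4.

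Apoa4, which coats chylomicrons and HDL and is made by both intestine and liver in the mouse, was between 3040 and 5042 CPM in vehicle mice. In INT-767-treated mice 1 to 4 it was 1538, 4966, 3518 and 16847 CPM. Mouse 1 was below every vehicle mouse and mouse 4 was above every one, and the coefficient of variation was 103% with INT-767 against 19.5% with vehicle. The log2 fold change of 0.74 ± 0.47 (SE; 95% interval -0.27 to 1.74; edgeR adjusted p = 0.271) rested on mouse 4, without which it was -0.28 (edgeR adjusted p = 0.582). Of the markers of intestinal epithelium, Fabp2 was the most abundant in these libraries and Cdx2 had 0 counts in every mouse. Fabp2 held most of the sum of these markers (203 CPM on average with vehicle and 425 with INT-767), while the other tested markers were lower or close to level (log2 fold changes of -1.44 for Vil1, -0.11 for Lgals4 and -0.07 for Apobec1, none past the threshold). The sum, in effect Fabp2, was between 183 and 406 CPM with vehicle and was 207, 471, 307 and 929 CPM in INT-767-treated mice 1 to 4, so it was highest in the mouse with the highest Apoa4, and its part in its level was not tested.

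**Figure D2:**
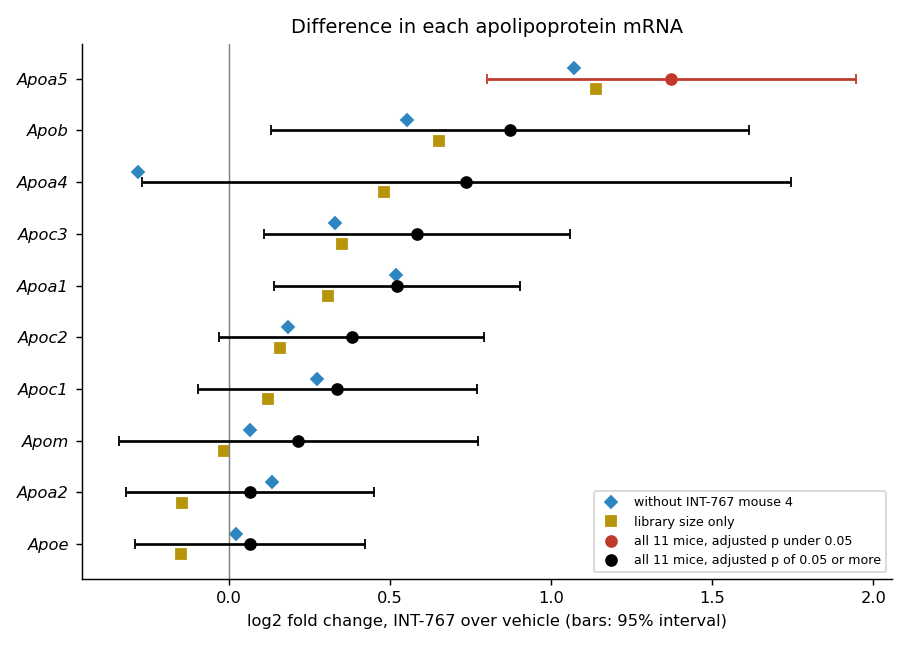
Log2 fold change of each apolipoprotein mRNA, INT-767 over vehicle. Circles with 95% intervals are the values over all 11 mice, diamonds the values without INT-767-treated mouse 4 and squares those scaled by library size alone; Apoa5 stayed above 1 in each, and Apoa4 fell to -0.28 without mouse 4.

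The 4 INT-767-treated mice did not move alike. Mouse 2 was above every vehicle mouse for 9 of the 10 genes and mouse 4 for 8, whereas mouse 3 was so for 2 and mouse 1 for 1, Apoa5. Mouse 1 was the lowest treated mouse for 8 of the 10 genes, and below every vehicle mouse for 3 (Apoa4, Apoe and Apom). Without mouse 4 the values of Apob, Apoc3 and Apoc2 were 0.55, 0.33 and 0.18 on the log2 scale, while that of Apoa1 was 0.52, as with all mice. Without mouse 1, Apoa1 (0.66, edgeR adjusted p = 0.0313) and Apoc3 (0.74, edgeR adjusted p = 0.046) passed the threshold as well. Without vehicle mouse 1, Apob did so (1.05, edgeR adjusted p = 0.0382).

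Ratios of a pair of mRNAs within a liver do not depend on how the libraries are scaled, and 3 were tested by an exact two-sided permutation test over all 330 assignments of 4 of the 11 mice, for which the smallest possible p is 0.00606. Apoa5 and Apoc3 have opposed effects on lipolysis and lie in the same cluster on chromosome 9. The log2 ratio of Apoa5 to Apoc3 counts was between -0.15 and 0.73 in vehicle mice and was 1.01, 1.28, 1.16 and 1.31 in INT-767-treated mice 1 to 4. All 4 treated mice were above all 7 vehicle mice, and the treated mice lay closer to each other than they did for either gene alone. The difference of means was 0.77 (0.42 ± 0.29 with vehicle against 1.19 ± 0.13 with INT-767, SD), a fold of 1.70, with an exact permutation p of 0.00606 and 0.0182 adjusted over the 3 ratios. Since the change of Apoa5 was known when the ratio was chosen, this is not separate evidence for it, and the other 2 ratios were likewise chosen with earlier results of these data known.

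For the HDL pair, the log2 ratio of Apoa1 to Apoa2 was between 0.65 and 0.99 in vehicle mice and was 0.98, 1.20, 1.43 and 1.54 in INT-767-treated mice 1 to 4. Mice 2, 3 and 4 were above every vehicle mouse. The difference was 0.44, a fold of 1.36 (exact permutation p = 0.0182, adjusted p = 0.0273). Without INT-767-treated mouse 2, 3 or 4, where 0.0167 is the smallest p to be had, the adjusted exact permutation p was 0.05 for Apoa5 over Apoc3 and 0.075 for Apoa1 over Apoa2. Mouse 1 lay within the vehicle range, and neither gene passed the threshold by itself in edgeR's test with all mice. For the cofactor and the brake of lipoprotein lipase, the log2 ratio of Apoc2 to Apoc3 was -0.87 ± 0.15 with vehicle (SD, n = 7) and -1.04 ± 0.17 with INT-767 (SD, n = 4), a difference of -0.18 that did not pass the threshold (exact permutation p = 0.097, adjusted p = 0.097). It passed without INT-767-treated mouse 1 (-0.26, adjusted exact permutation p = 0.0167) or vehicle mouse 7 (-0.21, adjusted exact permutation p = 0.0476).

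**Figure D3:**
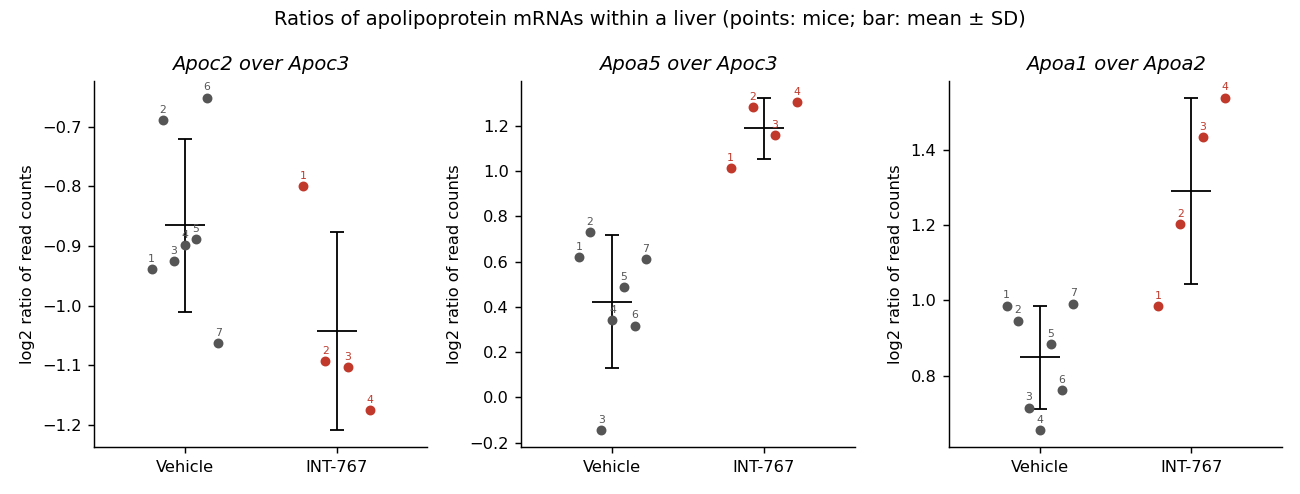
Log2 ratio of the read counts of a pair of apolipoprotein mRNAs in the same mouse. Points are mice with their replicate number and bars are the mean ± SD; the vertical axes differ and do not start at 0. For Apoa5 over Apoc3 the lowest INT-767-treated mouse (1.01) lay above the highest vehicle mouse (0.73).

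The 10 genes include 2 clusters. The cluster on chromosome 9 holds Apoa1, Apoc3, Apoa4 and Apoa5 within 43.3 kb, from 46228580 to 46271919, and the cluster on chromosome 7 holds Apoc2, Apoc1 and Apoe within 27.6 kb, from 19671579 to 19699188. Apoa2, Apob and Apom lie on chromosomes 1, 12 and 17. Log2 fold changes ran from 0.52 to 1.37 in the chromosome 9 cluster and from 0.06 to 0.38 in the chromosome 7 cluster, and without INT-767-treated mouse 4 from -0.28 to 1.07 and from 0.02 to 0.27, so that the ranges then overlap. The difference between the clusters was not tested. Apoc4, another apolipoprotein gene that lies between Apoc2 and Apoc1, had 0.31 ± 0.26 (SE; edgeR adjusted p = 0.396).

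The flanking genes given here lie wholly within 50 kb, were tested, and were named after their values were seen. Zpr1, next to Apoa5, had 0.41 ± 0.42 (SE; edgeR adjusted p = 0.497) and Bud13, beyond it, had 0.06 ± 0.47 (edgeR adjusted p = 0.932). In INT-767-treated mice 1 to 4 Zpr1 was at 132, 48.2, 70.1 and 19.8 CPM, so that its highest value was in the mouse with the lowest Apoa5 and its lowest in the mouse with the highest Apoa5. On chromosome 7, Clptm1 had 0.21 ± 0.11 (edgeR adjusted p = 0.176), with all 4 treated mice above all 7 vehicle mice, and Tomm40 had 0.33 ± 0.14 (edgeR adjusted p = 0.121). None of these flanking genes passed the threshold. Exons on the opposite strand cover 69.8% of the exon bases of Apoa4 (Gm47528 and Gm10680, the latter with 1 count in all mice together) and 20.8% of those of Apoa5 (Gm47544, which has no row in the table), and the other 8 genes have no such exons over theirs.

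**Figure D4:**
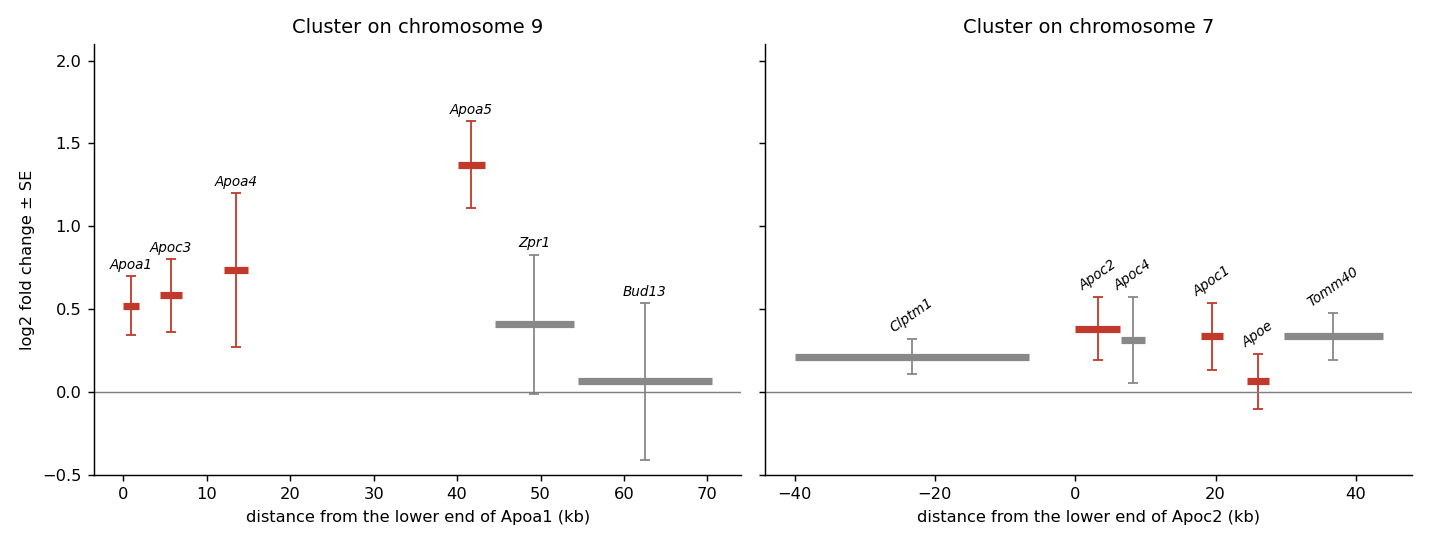
Log2 fold change ± SE of the tested genes lying wholly in or within 50 kb of each apolipoprotein cluster, against distance along the chromosome in kb from the lower end of Apoa1 or Apoc2. Horizontal bars span each gene, red for the 10 apolipoproteins and grey for others; Apoa5, with 1.37, stands above Apoa4, Apoc3 and Apoa1 and above its neighbour Zpr1 (0.41).

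Other genes of the lipoprotein pathway were counted from lists, beside the shares of all genes tested, which were 5.04% higher and 4.68% lower by edgeR, 10.4% and 9.86% by DESeq2, and 17.4% and 15.6% at an unadjusted p under 0.05 in edgeR. Of 16 tested genes of lipases, receptors and remnant uptake, 3 rose and 1 fell in edgeR's test, and 3 and 5 by DESeq2 (median log2 fold change 0.0034; median of all genes -0.01). By library size alone it was 1 higher and 2 lower, beside 331 and 1026 of 13880 genes. Those that rose were Lipc (hepatic lipase), Lsr and Sdc1. Lsr, a receptor for triglyceride-rich particles, was between 44.3 and 73.9 CPM with vehicle and was 86.7, 104, 74.3 and 95.2 CPM with INT-767, all above the vehicle range, at 0.69 ± 0.16 (edgeR adjusted p = 0.0252), and Sdc1, the syndecan that binds remnants, had 0.75 ± 0.22 (edgeR adjusted p = 0.0487). Lipc had 1.58 ± 0.25 (edgeR adjusted p = 0.00471). Vldlr, a receptor for VLDL, fell by 1.09 on the log2 scale (edgeR adjusted p = 0.0238). Lpl, lipoprotein lipase itself and picked after its value was seen, had -1.01 ± 0.31 (SE; edgeR adjusted p = 0.0591), short of the threshold. It was between 160 and 283 CPM with vehicle and was 137, 37.7, 85.6 and 139 CPM in INT-767-treated mice 1 to 4. Without INT-767-treated mouse 2 this list had 1 gene higher and 0 lower, as had 164 and 110 of 14349 genes. Without treated mouse 4 or vehicle mouse 4, 5 or 6 the list had 1 higher. In those fits 461 of 13955, 375 of 13817, 336 of 13429 and 306 of 13593 genes were called higher. The list had 4 lower without vehicle mouse 1 and 3 lower without treated mouse 1, where 1370 of 13898 and 732 of 13985 genes were called lower.

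Of 20 genes of VLDL assembly and secretion, 1 rose and 1 fell in edgeR's test, and 5 and 1 by DESeq2, with a median of 0.29. The edgeR counts are near the 5.04% and 4.68% of all genes, and the DESeq2 counts stand beside 10.4% and 9.86%. Sort1, a sorting receptor known to bind Apob, was between 32.6 and 41.7 CPM in vehicle mice and was 15.6, 7.74, 27.2 and 13.2 CPM in INT-767-treated mice 1 to 4, with no overlap. It fell by 1.21 on the log2 scale (SE 0.26; edgeR adjusted p = 0.017). Tm6sf2, which helps to load lipid onto VLDL, rose by 0.73 ± 0.19 (SE; edgeR adjusted p = 0.0357), and 3 of the 4 treated mice were above every vehicle mouse. The count of genes that rose was 0 without vehicle mouse 2, 3, 4, 5 or 6 or INT-767-treated mouse 2. It was also 0 by library size alone, by upper-quartile factors, under both other filters on counts and by limma-voom, and 5 without vehicle mouse 1. Of all genes, 1906 of 13898 were called higher without vehicle mouse 1 and 164 of 14349 without INT-767-treated mouse 2, against 700 of 13880 with all mice. Without vehicle mouse 2, 3, 4, 5 and 6 in turn 512, 429, 375, 336 and 306 were. By library size alone 331 were, by upper-quartile factors 467 and by limma-voom 577. Under the other filters it was 502 of 27306 and 514 of 11479. Mttp, the transfer protein that lipidates Apob and was picked after its value was seen, had -0.09 ± 0.19 (edgeR adjusted p = 0.755).

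Of 14 tested genes of HDL formation and remodelling, 1 rose and 0 fell in edgeR's test (2 and 3 at an unadjusted p under 0.05, and 2 and 1 by DESeq2), with a median of -0.16, and the edgeR count is near the 5.04% of all genes called higher. The 1 was Scarb1, the HDL receptor, at 0.83 ± 0.17 (SE; edgeR adjusted p = 0.0115), and the count was 0 without INT-767-treated mouse 2 and 2 without mouse 4. In those fits 164 of 14349 and 461 of 13955 genes were called higher. In this list 1 gene was lower by library size alone, with the offset for GC content and length and without INT-767-treated mouse 1, and 2 were lower without vehicle mouse 1. In those fits 1026 of 13880, 822 of 13835, 732 of 13985 and 1370 of 13898 genes were called lower. A further list held 17 other genes with an apolipoprotein name or alias, among them Apobr, which is a receptor. Of these 11 had enough counts, of which 1 rose and 0 fell in edgeR's test (4 and 2 at an unadjusted p under 0.05, and 2 and 1 by DESeq2), with a median of 0.24. Apobr (log2 fold change -1.17) was 1 of the 2 lower at that unadjusted p. Without vehicle mouse 1, 3 genes of this list rose and 2 fell, and 1906 and 1370 of 13898 genes did so in that fit. Here too, with all mice, 1 gene is near the 5.04% of all genes that edgeR called higher. The gene that rose with all mice was Apol7a, a member of the apolipoprotein L family, which was between 44.4 and 63.3 CPM with vehicle and was 127, 161, 89.7 and 95.8 CPM with INT-767 (log2 fold change 1.11 ± 0.17, SE; edgeR adjusted p = 0.004).

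Of 26 transcription factors and cofactors known to act on apolipoprotein genes, 3 rose and 1 fell in edgeR's test, and 6 and 1 by DESeq2, with a median of 0.12, beside 5.04% of all genes higher and 4.68% lower by edgeR and 10.4% and 9.86% by DESeq2. The call of Nr1d1, the 1 that fell, was lost without INT-767-treated mouse 2, where 110 of 14349 genes were called lower. The count that rose was 5 without vehicle mouse 1, where 1906 of 13898 genes were called higher. Nr0b2 (SHP), a target of FXR and a repressor of transcription, was between 9.74 and 26.0 CPM with vehicle and was 49.3, 63.0, 45.2 and 41.1 CPM with INT-767, where mouse 4, highest for 6 of the 10 apolipoproteins, was the lowest. Ppargc1a, a coactivator of nuclear receptors, had 0.93 ± 0.15 (SE; edgeR adjusted p = 0.00496) and Thrb, a thyroid hormone receptor, had 0.54 ± 0.14 (edgeR adjusted p = 0.0352). Nr1d1 (Rev-erb alpha), a repressor of the circadian clock, was between 18.8 and 55.5 CPM with vehicle and was 13.3, 3.18, 15.9 and 3.07 CPM with INT-767, and it fell by 2.28 on the log2 scale (edgeR adjusted p = 0.0204). Its lowest values were in mice 4 and 2, those with the highest Apoa5, and whether Nr1d1 had a part in the Apoa5 level was not tested.

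Hnf4a, a receptor on which many apolipoprotein genes depend and which was picked after its value was seen, had 0.16 (edgeR adjusted p = 0.573). Of the receptors of INT-767, Nr1h4 had -0.25 (edgeR adjusted p = 0.232), and Gpbar1 had 14 counts in all vehicle mice together and 7 in all treated mice, too few to be tested. Abcb11, the bile salt export pump and a target of FXR, was between 184 and 401 CPM with vehicle and was 961, 1125, 524 and 563 CPM with INT-767.

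**Figure D5:**
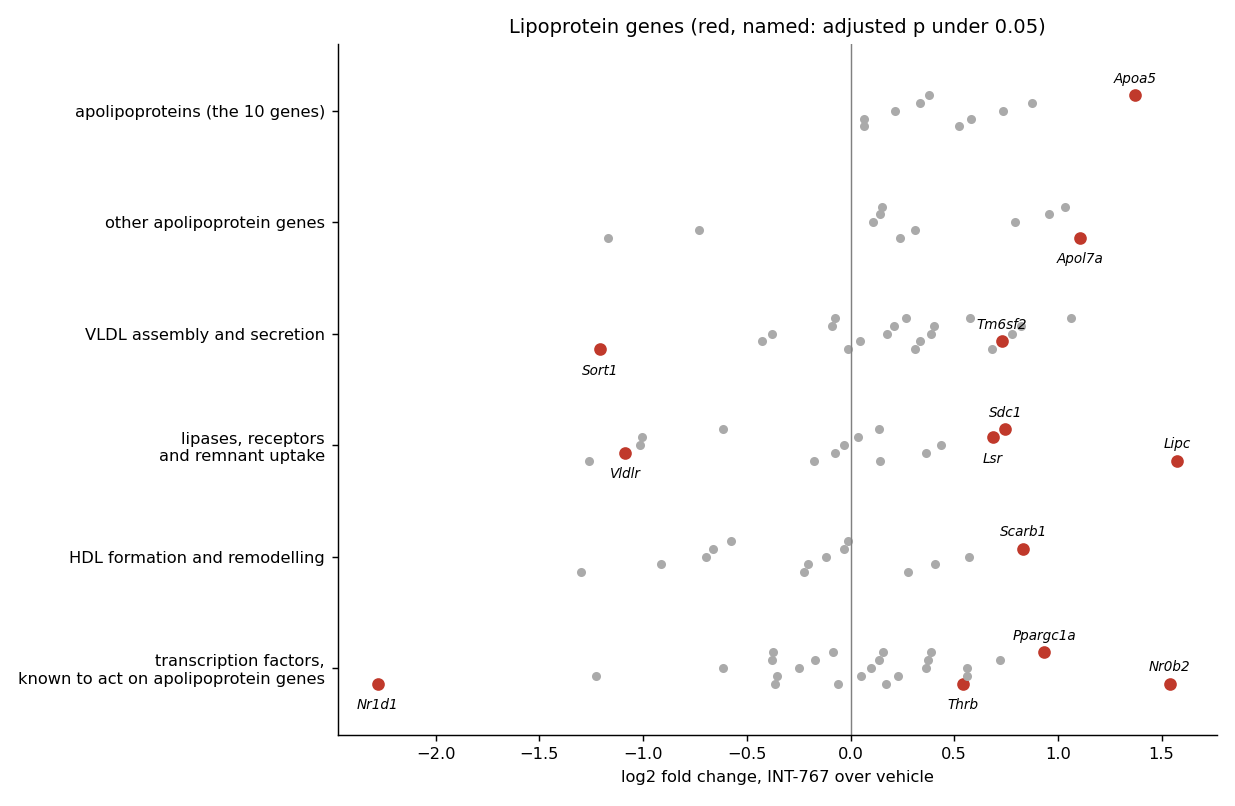
Log2 fold change, INT-767 over vehicle, of the tested genes of each list. Every point is a gene, and genes with an edgeR adjusted p under 0.05 are red and named; of the 10 apolipoproteins all lie above 0 and Apoa5 alone is red.

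The 3 genes whose profile over the 11 mice was closest to that of Apoa5, by the root mean square difference of centred log2(CPM + 1), were Entpd8 (0.114), Mief2 (0.168) and Hsd11b1 (0.172), where the spread of Apoa5 itself on that scale was 0.747. Entpd8, a nucleotide-hydrolysing enzyme of the bile canaliculus, had 57.1 ± 11.6 CPM with vehicle and 145 ± 76.8 with INT-767 (SD; log2 fold change 1.34 ± 0.28, SE; edgeR adjusted p = 0.0139). Mief2, a mitochondrial outer membrane protein, had a log2 fold change of 1.26 ± 0.30 (edgeR adjusted p = 0.0252). Hsd11b1, the enzyme that regenerates active glucocorticoid, had 1.70 ± 0.27 (edgeR adjusted p = 0.00471). These genes were picked for their likeness, so their direction is given as a description.

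In bulk liver, fewer cells of a type and less RNA per cell cannot be told apart. The tissue label was checked against markers: Alb, at 43057 CPM in vehicle livers, was the most abundant of 9 tested hepatocyte markers, of which 1 rose (Ass1, of the urea cycle, 1.31 ± 0.21, SE; edgeR adjusted p = 0.0045) and 0 fell (3 and 0 at an unadjusted p under 0.05 and also by DESeq2), with a median of 0.22, and 3 rose without INT-767-treated mouse 4. Of all genes 5.04% were higher by edgeR, 17.4% at an unadjusted p under 0.05 and 10.4% by DESeq2. Without INT-767-treated mouse 4, edgeR called 461 of 13955 genes higher. The summed hepatocyte markers were between 58882 and 79189 CPM with vehicle and were 107027, 103097, 84931 and 63562 CPM in INT-767-treated mice 1 to 4. Most of this sum was Alb, at 79704, 77853, 60327 and 37768.5 CPM in those mice, so it is a measure of that gene more than of hepatocytes. The mouse with the highest sum, mouse 1, was the lowest treated mouse for 8 of the 10 apolipoproteins, and mouse 4, highest for 6 of them, had a sum within the vehicle range.

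Of 15 macrophage markers 0 rose and 2 fell (Csf1r and Cd68; median -0.53), of 10 stellate cell and fibroblast markers 0 rose and 2 fell (Col1a1 and Pdgfrb; median -0.55), and of 6 cholangiocyte markers 0 rose and 1 fell (Cldn4; median -0.62), where edgeR called 4.68% of all genes lower. None of these markers was higher at an unadjusted p under 0.05 or by DESeq2, and 6, 4 and 4 of the lists were lower at that unadjusted p, as were 15.6% of all genes. The macrophage count was 5 by library size alone, where 1026 of 13880 genes were called lower. It was also 5 without INT-767-treated mouse 4, where 443 of 13955 were. The stellate cell and fibroblast count was 0 without vehicle mouse 3, 4, 5 or 6 or INT-767-treated mouse 2, and the cholangiocyte count was 0 without INT-767-treated mouse 2 and 2 by library size alone, by upper-quartile factors, without vehicle mouse 1 and without INT-767-treated mouse 3. DESeq2 called 5, 3 and 3 lower, beside 9.86% of all genes. The summed macrophage markers, of which Lyz2 was the most abundant and none was at 0, were between 950 and 1417 CPM with vehicle and were 653, 689, 610 and 1577 CPM in INT-767-treated mice 1 to 4. The summed stellate cell and fibroblast markers, led by Dcn, were between 931 and 1729 CPM with vehicle and were 707, 794, 864 and 1410 CPM in treated mice 1 to 4. The cholangiocyte sum was nearly all Spp1 (996 CPM on average with vehicle and 733 with INT-767), which the macrophage list also holds, so it is a measure of that gene more than of cholangiocytes, and it was between 735 and 1936 CPM with vehicle and was 356, 590, 809 and 1359 CPM with INT-767. All 3 sums were highest among treated mice in mouse 4, the mouse with the highest Apoa5, Apob, Apoc2, Apoc3, Apoa4 and Apom, and the part of cell makeup in the apolipoprotein values was not tested. Of 4 tested intestinal markers 0 rose and 0 fell by edgeR's test (median -0.09), with 1 higher and 1 lower at an unadjusted p under 0.05 and also by DESeq2.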

How the data were processed

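Liver RNA of 11 ob/ob mice, 7 given vehicle and 4 given INT-767 by the sample labels, had been sequenced by the authors from stranded libraries of polyadenylated RNA (75 cycles). The submitters' processing notes name STAR (2.4.0) and GRCm38; the study's supplementary methods name another version of STAR and Ensembl release 84. The authors deposited raw read counts per gene, not normalized, for 46603 genes. How reads were assigned to genes, with or without strand, and whether libraries were made in batches is not given in the sources used here. Replicate numbers of the labels name separate mice.

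Counts were analysed in R 4.3.3 with edgeR 4.0.16: TMM factors, filterByExpr (minimum count 10, minimum total 15), a robust glmQLFit, glmQLFTest on the treatment term, and Benjamini-Hochberg adjustment over 13880 genes at 0.05. SE was the log2 fold change over the root of F. CPM used TMM-scaled library sizes, and RPKM used the union of exons in GENCODE M21. Differences between mice include animal and library. No pair of libraries was a copy. Alternatives used limma 3.58.1 and DESeq2 1.42.0.

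The 10 genes, the lists and the ratios were chosen with earlier results of these data known. Named are the 10 genes, up to 6 called genes a list by smallest p, Nr1h4, Nr0b2, Abcb11 and Gpbar1, and the 3 genes closest in profile to a called member; others are said to be chosen later. Angptl8, Pcpe2, Tf and Si had no match by symbol in the table. The macrophage sum leaves out Spp1, which the cholangiocyte list also holds. 1 item of the lists is not reported here.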

Additional observations from a re-analysis of the deposited data

How the results depend on the processing

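Each gene had 24 alternatives, 11 of them without a single mouse. Apoa1, Apoa5, Apob, Apoc2 and Apoc3 were above 0 in all 24. Apoa2 and Apoe were below 0 by library size alone (-0.146 and -0.151), by upper-quartile factors (-0.0122 and -0.0158), with at least 10 counts in every mouse (-0.0071 and -0.0088) and with an offset for GC content and length (-0.193 and -0.0052). The offset also gave 0.0672 for Apoc1 and 0.134 for Apoc2. Library size alone gave 0.119 for Apoc1, 0.156 for Apoc2, 0.308 for Apoa1 and 0.481 for Apoa4, and limma-voom gave 0.217 for Apoa4. Apom was below 0 by library size alone (-0.0155) and with the offset (-0.0174), and Apoa4 by limma-voom with sample weights (-0.143). Apoa1 passed the threshold by DESeq2 (0.527, adjusted p = 0.0146) and by sample weights (0.58, adjusted p = 0.0351), and Apob by sample weights (0.867, adjusted p = 0.0471). The causes were not tested. Leaving out 1 mouse gave 0.414 to 0.665 for Apoa1, -0.0838 to 0.133 for Apoa2, -0.282 to 1.07 for Apoa4, 1.07 to 1.57 for Apoa5, 0.552 to 1.10 for Apob, 0.182 to 0.449 for Apoc1, 0.183 to 0.526 for Apoc2, 0.327 to 0.739 for Apoc3, -0.0384 to 0.149 for Apoe and 0.0639 to 0.456 for Apom. It gave 0.673 to 0.827 for the log2 ratio of Apoa5 to Apoc3, 0.358 to 0.543 for Apoa1 to Apoa2 and -0.259 to -0.134 for Apoc2 to Apoc3.

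With all 11 mice 700 genes were higher and 649 lower. The counts were 331 and 1026 by library size alone, 1443 and 1368 by DESeq2 (2 of the 10 apolipoproteins higher), and 1626 and 1182 by sample weights (3 of them). They were 158 and 87 at an adjusted p under 0.01 (0 of the apolipoproteins in edgeR, against 4 at an unadjusted p under 0.05), and 1066 and 822 with the offset. Leaving out 1 mouse gave from 164 (without INT-767 mouse 2) to 1906 (without vehicle mouse 1) higher, from 110 to 1370 lower in the same fits, and from 1 to 3 of the apolipoproteins higher. Calls in the lists of other genes also depended on single mice and on scaling.

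Replicate numbers 1 to 4 occur in both groups, but same-numbered mice did not deviate together (r of -0.728, 0.24, 0.209 and -0.522), so the numbers do not pair them. With the number as a replicate block edgeR called 0 genes higher and 0 lower (565 and 782 at an unadjusted p under 0.05) and 0 of the apolipoproteins (1 at an unadjusted p under 0.05), with 1.20 for Apoa5 (adjusted p = 0.394), -0.0734 for Apoa2, -0.0502 for Apoe and -0.0084 for Apom. The replicate block with the offset also called 0 (783 and 898 at an unadjusted p under 0.05), with 1.26 for Apoa5 (adjusted p = 0.275), -0.272 for Apoa2, -0.0396 for Apoc1, -0.113 for Apoe and -0.158 for Apom.

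With 4 treated mice the widest intervals were those of Apoa4 and Apob. The lowest count of any of the 10 genes in any mouse was 256 (Apom).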
